A study of Mus musculus with 6 samples.

Results

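The exocrine share is a measure of how much acinar RNA an islet library holds, acinar cells being the enzyme-secreting cells around the islets. It was computed for all 6 of the 6 libraries as the summed counts of 10 genes of these cells, not of all their RNA, over the library total; the genes were Cpa1, Cpb1, Cela2a, Cela3b, Ctrb1, Prss2, Pnlip, Try4, Try5 and Clps. Its log2 then entered a model with genotype, so that each gene received a slope, the log2 change in its level for every doubling of the share. A slope of 1 means a level that rose in proportion to the share, and a slope of 0 a level that did not move with it. The scale was chosen by the measured counts of these 10 genes, so their own values are given as a description without a test.

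The libraries were made from mouse pancreatic islets. All animals carried Rosa26-rtTA, an activator of transcription that needs doxycycline, and RIP-Cre, in which the rat insulin promoter drives Cre in beta cells, and all received doxycycline for 8 weeks. The 3 control libraries came from RIP-Cre+, Rosa26-rtTA+, tetO_Jag1- mice and the 3 Jag1 libraries from RIP-Cre+, Rosa26-rtTA+, tetO_Jag1+ mice, whose added allele encodes the Notch ligand Jag1. Whether each library was made from its own animal is not stated, and p-values here measure library-to-library spread, which may be technical.

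Acinar cells fill most of the pancreas and make digestive enzymes and enzyme precursors, which they store in zymogen granules and release into the ducts. A small group of transcription factors, with PTF1A and its partner RBPJL at the centre, holds the enzyme genes active. Islets are freed from this tissue by digestion and picking, and acinar cells or their RNA can remain with them. In whole-islet RNA, a larger number of acinar cells and more acinar RNA per cell cannot be told apart.

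The share spanned 23.1-fold, or 4.53 doublings, and did not follow genotype. It was 0.232% in Control 3 (exact 95% Clopper-Pearson interval 0.230 to 0.235, counting error only), 0.414% in Jag1 1 (0.411 to 0.417) and 1.38% in Jag1 2. In the other three it was 1.97% in Control 2, 5.13% in Control 1 and 5.37% in Jag1 3. Each genotype thus held a library of low, middle and high share, and the groups overlapped almost entirely. The mean log2 share was -6.23 ± 2.29 in control and -6.11 ± 1.85 in Jag1 libraries (SD, n = 3 each), a difference of 0.13 with an exact 2-sided permutation p of 0.9, where 3 against 3 cannot go below 0.1. That difference turned to -1.13 without Control 3 and to -0.82 without Jag1 3.

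**Figure D1:**
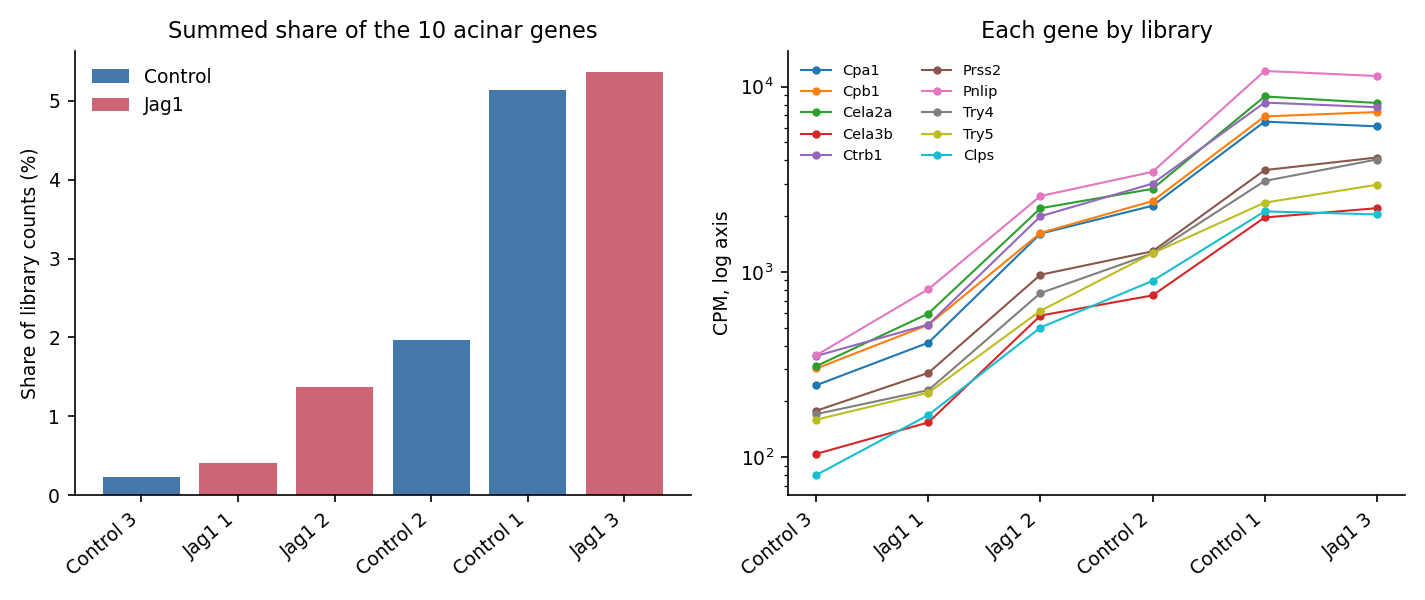
Left, the summed share of the 10 acinar genes in percent of library counts, 1 bar per library in order of rising share, coloured by genotype. Right, the level of each of the 10 genes in CPM on a log axis in the same order; the bars rise from 0.232% to 5.37% with both genotypes mixed along the way, and the 10 lines run nearly parallel.

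The 10 genes rose together. Their levels are given as counts scaled to a common library size (CPM), always in the order Control 3, Jag1 1, Jag1 2, Control 2, Control 1, Jag1 3, which is the order of rising share. Cpa1, the procarboxypeptidase A1 gene, stood at 244.9, 415.3, 1611, 2277, 6478 and 6110 CPM. Prss2, a trypsinogen, stood at 178.3, 285.3, 966.0, 1293, 3546 and 4147 CPM. Ctrb1, the chymotrypsinogen B gene, stood at 352.2, 520.2, 1999, 2998, 8208 and 7753 CPM. All 3 were lowest in Control 3 and highest in Control 1 or Jag1 3. Pnlip, pancreatic lipase, stood at 355.5, 807.8, 2569, 3473, 12160 and 11420 CPM and had the steepest slope of the 10, at 1.09. The shallowest was Try5, a trypsinogen, at 0.94, and the median was 1.02.

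The makeup of the summed counts was not constant. Pnlip took between 15.7% (Control 3) and 21.8% (Control 1) of the 10 genes' counts. Try5 varied most, from 4.25% in Control 1 to 7.07% in Control 3, a ratio of 1.66. Cpb1, procarboxypeptidase B1, varied least, with a ratio of 1.10 between its highest and lowest part of the sum. Try4 and Try5 share 801 bp at 97.1% identity, so the counting could move reads between them.

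The 10 genes are part of a larger acinar output. With the other acinar secreted proteins and the amylase copies added, acinar transcripts took 0.645%, 1.39%, 4.22%, 5.50%, 15.9% and 16.1% of library counts. The remaining counts fell from 99.4% of the total in Control 3 to 83.9% in Jag1 3. Insulin transcripts (Ins1 and Ins2 summed) took 16.4%, 16.3%, 18.8%, 13.8%, 11.4% and 12.2% of counts in the same order. TMM scaling, which sets library size by the bulk of genes, kept the median slope at -0.00 over the 14063 genes tested outside the 10. Dividing by the library total moved it to -0.04.

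Outside the 10 genes, 93 of 14063 genes were associated with the share (0.661%; quasi-likelihood test of edgeR at a Benjamini-Hochberg adjusted p below 0.05). Of these, 92 rose with the share (0.654%) and 1 fell (0.00711%). At an unadjusted p below 0.05 there were 1052 genes, 633 higher and 419 lower. Leaving out 1 library at a time gave 70 calls (without Control 1) to 162 (without Control 2), and 49 of the 93 were called in all 6 such fits. Of those 49, 30 belonged to the lists of acinar or regenerating genes and 0 fell with the share. These lists held 25 acinar secreted proteins, 8 transcription factors, 21 receptor and secretory apparatus genes and 4 regenerating genes of the 14063. The amylase copies Amy2a1 to Amy2a4, on none of the lists, were also called in all 6 fits.

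**Figure D2:**
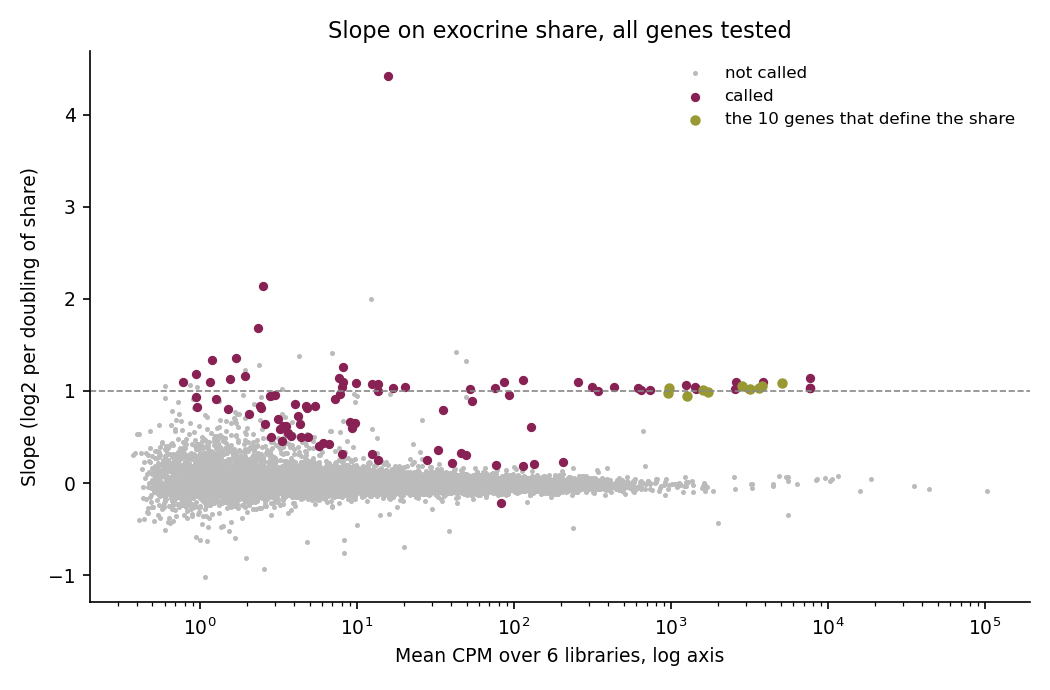
Slope on the exocrine share (log2 change per doubling) against mean CPM over 6 libraries on a log axis, 1 point per gene tested, with called genes and the 10 defining genes coloured and the dashed line at a slope of 1. Most called genes above 100 CPM lie along the dashed line, but Nupr1, Mt1, Cd74 and Mt2 lie below it, at slopes from 0.61 to 0.18. The called genes below 100 CPM spread from near 0 upward, and 1 called gene lies below 0.

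For most of the genes that rose, proportion to the share was not excluded. For 51 of the 92 the 95% interval of the slope included 1, for 35 it lay below 1 and for 6 above 1. An interval that includes 1 can be wide: that of Itgal, with a slope of 0.83, ran from 0.51 to 1.16. The slopes of all genes tested outside the 10 defining genes ran from -0.10 at the 5th to 0.20 at the 95th percentile. Several called genes lay beside each other or beside defining genes in the genome (GRCm38, 1-based, neighbours within 500000 bp). Uncalled genes in these stretches were not counted. On chromosome 6, the called 2210010C04Rik and Try10 and the defining Try4, Try5 and Prss2, 5 trypsinogen genes, lay between 41030268 and 41525079. The trypsinogen genes Prss3 and Prss1 lay in the same stretch and were tested but not called. On chromosome 3, 7 called amylase genes, among them the annotated pseudogene Amy2b, lay between 113147656 and 113606699. On chromosome 19, the called Pnliprp1, Pnliprp2 and the pseudogene 1810018F18Rik lay with the defining Pnlip between 58652498 and 58777534. A called kallikrein group on chromosome 7 held Klk1, Klk1b4, Klk1b5 and Klk1b11, between 43995877 and 44229618. Of 102 called and defining genes searched, 35 share at least 100 bp at 85% identity or more with another gene, among them Klk1 and Klk1b5 (957 bp at 94.4%), and their counts are uncertain to that extent.

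The PTF1 complex that serves acinar genes is known to read a paired site, an E-box (CANNTG) followed by a TC-box (TTTCCC). RefSeq promoter windows (GRCm38.p6, 250 bases before to 50 after the start) were searched on both strands for these letters in the same orientation, 2 to 6 or 12 to 17 bases apart. The pair was present in 407 of 27025 promoters (1.51%), in 144 of 10891 promoters of genes tested (1.32%) and in 2 of 69 promoters of genes called outside the defining genes (2.90%). It was present in 2 of 8 promoters of the defining genes, Cpa1 and Ctrb1, and in 3 of 18 of the other acinar secreted proteins tested, the called Cel and Cela1 and Prss1, a trypsinogen gene that did not pass the slope test. The promoters of the 2 defining and the 2 called genes are shown because they hold this pair. Capitals mark the 2 boxes; in Cel and Cpa1 the pair reads on the opposite strand, and in Cpa1 it spans the start of the gene. A match of letters describes the sequence and is not a measured binding site.
Cel, chr2:28563437-28563516, minus strand: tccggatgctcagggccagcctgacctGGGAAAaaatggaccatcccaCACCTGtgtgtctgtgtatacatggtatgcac
Cela1, chr15:100687982-100688061, minus strand: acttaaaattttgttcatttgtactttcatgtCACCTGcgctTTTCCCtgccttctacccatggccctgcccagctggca
Cpa1, chr6:30639146-30639225, plus strand: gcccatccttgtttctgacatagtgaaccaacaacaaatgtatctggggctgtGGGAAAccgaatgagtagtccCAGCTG
Ctrb1, chr8:111691168-111691247, minus strand: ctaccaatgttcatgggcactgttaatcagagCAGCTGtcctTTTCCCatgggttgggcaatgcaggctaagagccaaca

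Of the other acinar secreted proteins, 22 of 25 tested members rose with the share and 0 fell. Their median slope was 1.02, against -0.00 over all genes tested outside the defining genes. Pla2g1b, which encodes pancreatic phospholipase A2 (chromosome 5, 115466262 to 115474722), stood at 7.14, 9.99, 37.3, 78.1, 228.1 and 159.9 CPM. Its slope was 1.10 (SE 0.03, edgeR adjusted p = 1.62e-08). Klk1, a glandular kallikrein protease, had a slope of 1.04 (SE 0.04) and Zg16, a zymogen granule membrane lectin, 1.01 (SE 0.04). These slopes lay near 1 for enzymes and granule proteins alike. Cel, carboxyl ester lipase, and Cela1, an elastase, shown above with their promoters, had slopes of 1.09 (SE 0.04) and 1.02 (SE 0.04). The amylase Amy2a5 rose from 400.5 CPM in Control 3 to 19430 in Control 1, with a slope of 1.15 (SE 0.07). Amy2a2, Amy2a3 and Amy2a4 had identical counts in every library, so the 3 copies are 1 measurement here. Below proportion lay Spink1, the trypsin inhibitor made beside trypsinogen, with a slope of 0.80 (SE 0.08), Tff2, a trefoil peptide, with 0.89 (SE 0.05), and Amy1 with 0.65 (SE 0.08). Spink1 was not called without Jag1 1 (edgeR adjusted p = 0.0795).

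The other three tested members did not pass. Dmbt1, a scavenger receptor-like glycoprotein, stood at 49.98, 955.6, 203.8, 355.1, 1379 and 1036 CPM, with a slope of 0.57 (95% interval -0.75 to 1.89, edgeR adjusted p = 0.842). Jag1 1, a library of low share, stood among the high libraries for this gene. Krt19, a keratin of duct cells, was also highest in Jag1 1, at 21.89 CPM against 1.43 to 7.44 elsewhere. Its part in the Dmbt1 value was not tested, and it was picked after its values were seen. The duct list as a whole did not single out Jag1 1. Its summed level was 1110 CPM in Jag1 1, 1108 in Jag1 2 and 1121 in Jag1 3. In the controls it was 835.1 to 972.9 CPM. Prss3, a trypsinogen, had a slope of 0.94 (edgeR adjusted p = 0.615) and Prss1 had 1.04 (edgeR adjusted p = 0.123). Cela3a and Muc16 were too low to be tested, with at most 10 and 0 counts in a library, and Spink3 and Ctrb2 were not analysed here.

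**Figure D3:**
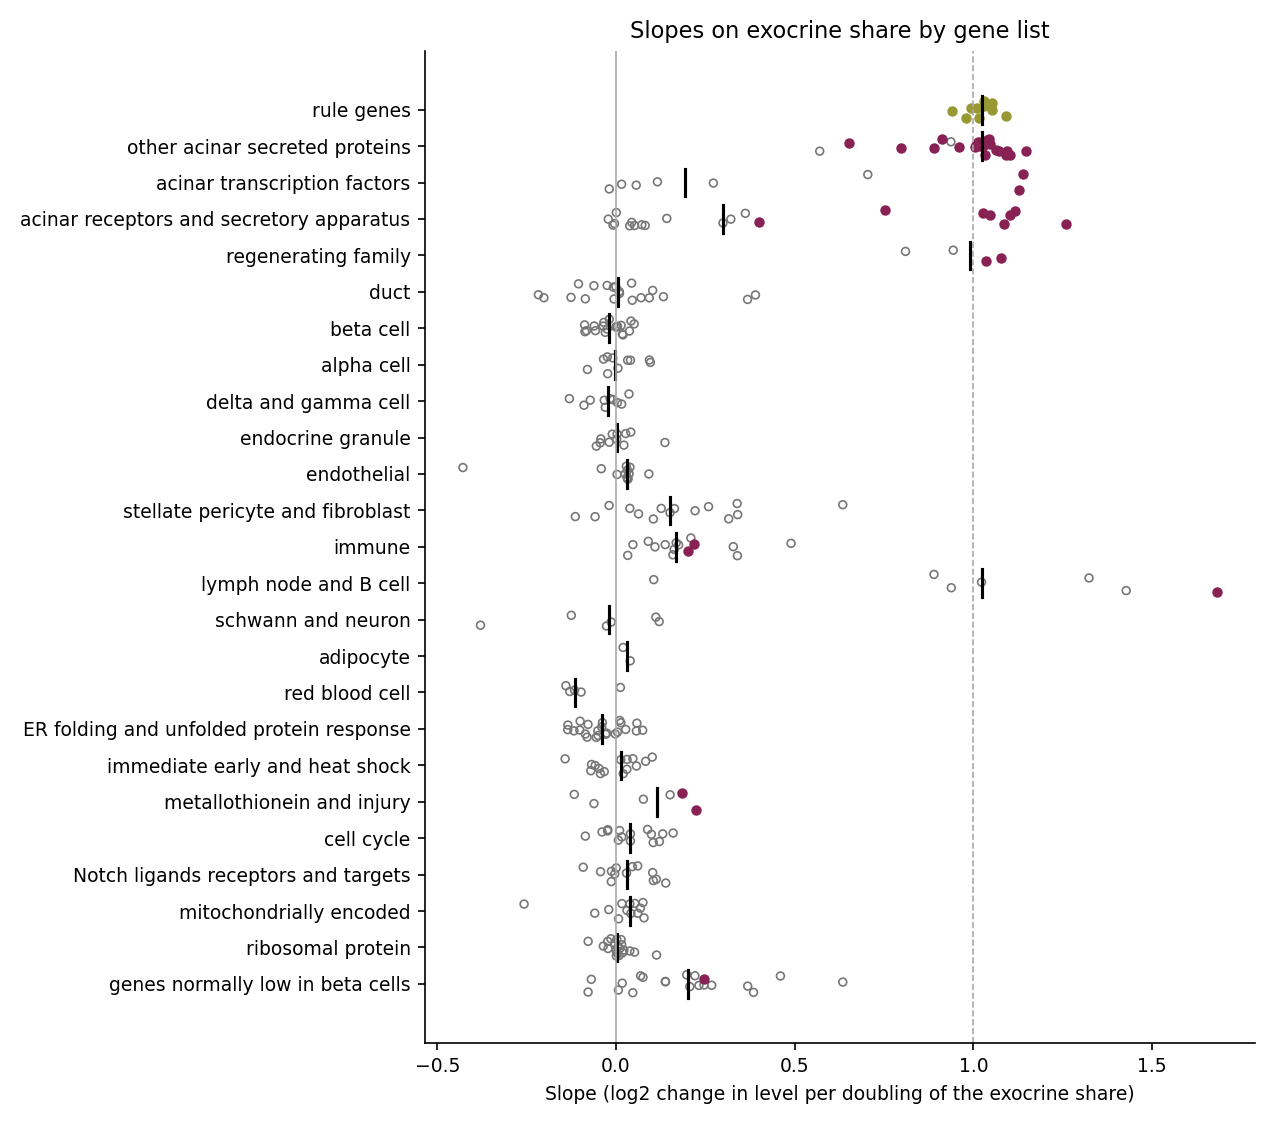
Slopes on the exocrine share for the tested members of the defining genes and 24 gene lists, 1 point per gene; filled points were called, black bars are medians, and the dashed line marks a slope of 1. The acinar secreted proteins gather near 1, with median 1.02, the acinar transcription factors and secretory apparatus split between 0 and 1, and the islet endocrine lists gather near 0.

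The acinar transcription factors split into those that rose with the share and those that did not pass. Rbpjl, the acinar subunit of the PTF1 complex (chromosome 2, 164403141 to 164415448), stood at 0.75, 0.48, 3.87, 7.26, 15.3 and 18.5 CPM. Its slope was 1.14 (SE 0.09, edgeR adjusted p = 3.5e-05). Ptf1a, the basic helix-loop-helix subunit (chromosome 2, 19445663 to 19447501), stood at 0.14, 0.16, 0.71, 1.21, 3.07 and 4.02 CPM, from 2 and 3 counts in the lowest libraries to 56 and 68 in the highest. The slope of Ptf1a was 1.13 (SE 0.14, edgeR adjusted p = 0.00138). The 2 libraries of highest share were thus highest for both factors. These were 2 of 8 tested members of the list, whose median slope was 0.19; Creb3l4 and Nr0b2 were too low to be tested.

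The remaining factors also serve cells outside the acinus. Gata4, a zinc finger factor, had a slope of 0.70 (edgeR adjusted p = 0.101), and Nr5a2, a nuclear receptor, had 0.27 (edgeR adjusted p = 0.463). Bhlha15, also called Mist1, which shapes secretory cells, stood at 39.65, 67.6, 50.3, 49.8, 70.5 and 73.1 CPM, with a slope of 0.12 (edgeR adjusted p = 0.623). Its lowest library was also the one of lowest share, but Jag1 1 stood with the high libraries. Xbp1, the unfolded protein response factor, varied only from 321.8 to 365.5 CPM, with a slope of 0.02 (95% interval -0.05 to 0.09) that became -0.02 when libraries were scaled by their totals. Gata6 had a slope of 0.06 (95% interval -0.04 to 0.15).

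Among the receptors and secretory apparatus, 8 of 21 tested members rose with the share and 0 fell, with a median slope of 0.30. Cckar, the receptor through which cholecystokinin triggers enzyme release (chromosome 5, 53697776 to 53707705), stood at 1.43, 3.35, 12.9, 15.6, 46.2 and 42.0 CPM, with a slope of 1.05 (SE 0.05, edgeR adjusted p = 1.77e-07). Pdia2, a pancreatic disulfide isomerase (chromosome 17, 26195999 to 26199087), stood at 7.48, 15.9, 66.9, 76.9, 243.7 and 275.5 CPM and had a slope of 1.12 (SE 0.04). Pdia2 followed the order of the share through all 6 libraries, and Cckar up to its 2 highest. Erp27, an endoplasmic reticulum protein, and Aqp12, an acinar aquaporin, had slopes of 1.03 (SE 0.05) and 1.08 (SE 0.06). Tmed11, a cargo receptor of the early secretory pathway, had the largest of the list at 1.26 (SE 0.07). Slc39a5, a zinc importer, had 1.10 (SE 0.08). Cldn10, a claudin of tight junctions, had 0.75 (SE 0.12) and Gnmt, glycine N-methyltransferase, had 0.40 (SE 0.07). The call of Cldn10 was lost without Control 1 or Control 3 (edgeR adjusted p of 0.114 and 0.130), and that of Gnmt also without Jag1 3 (0.271, 0.413 and 0.120). Tmed6, another cargo receptor, narrowly missed the threshold (slope 0.36, edgeR adjusted p = 0.0504). Chrm1, Sctr, Aqp8 and Car14 were too low to be tested.

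**Figure D4:**
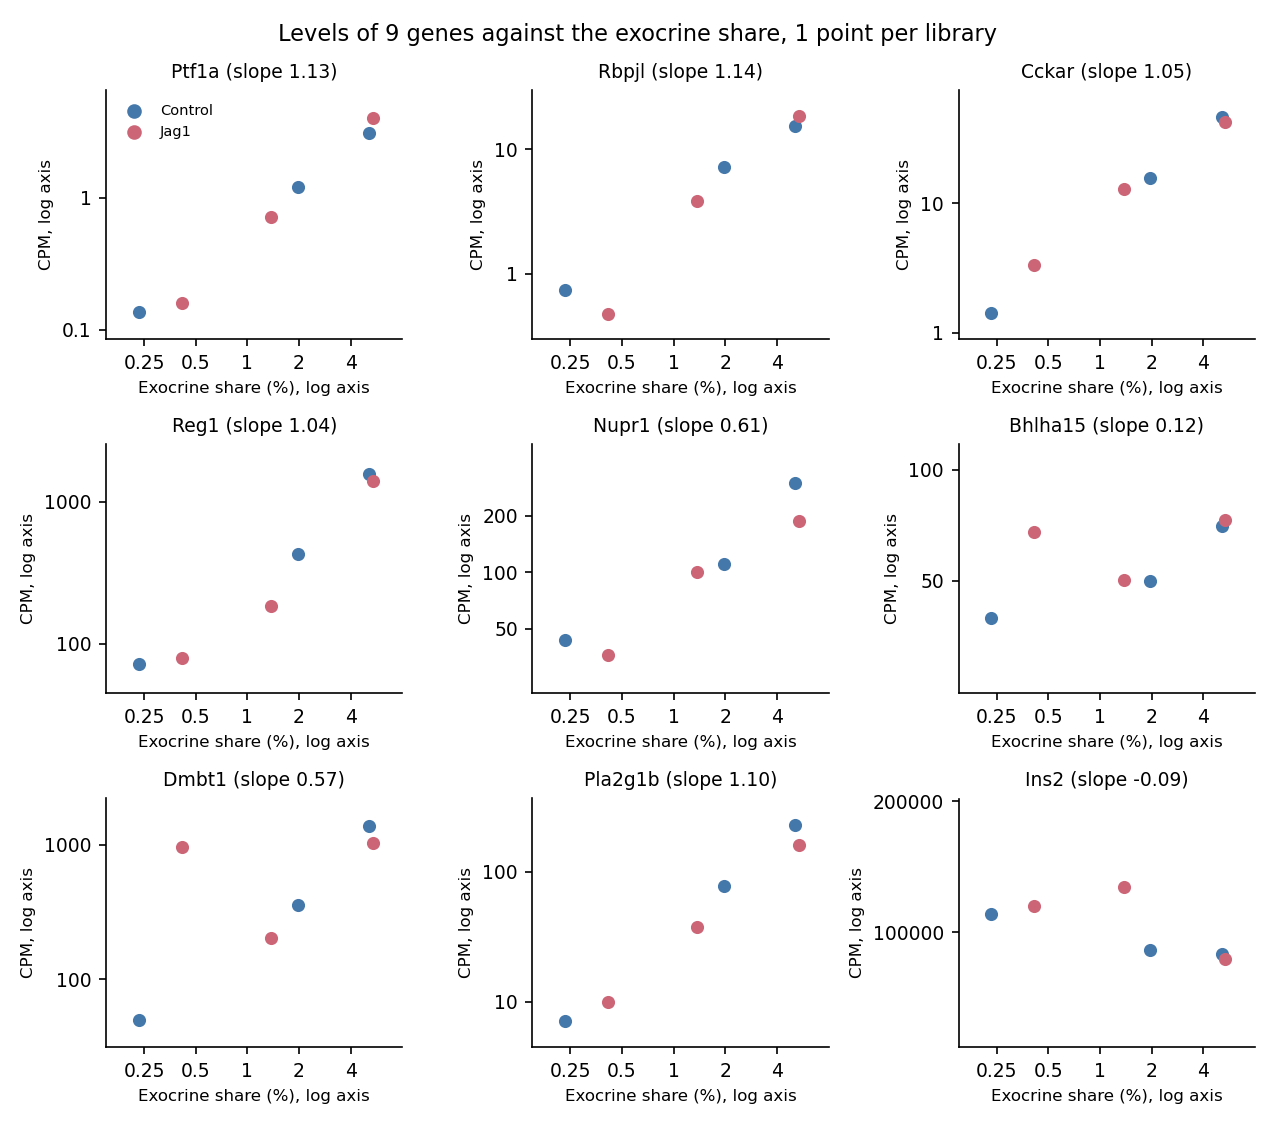
CPM of 9 genes against the exocrine share, both on log axes, 1 point per library, coloured by genotype. Ptf1a, Rbpjl, Cckar and Reg1 climb with slopes of 1.04 to 1.14, Bhlha15 has a slope of 0.12, Dmbt1 has 1 low-share library among the high ones, and Ins2 has a slope of -0.09.

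Regenerating proteins are small secreted lectins that acinar cells release, many of them induced by injury. Of 4 tested genes, 2 rose with the share. Reg1 stood at 71.9, 79.4, 185.8, 426.5, 1574 and 1384 CPM, with a slope of 1.04 (SE 0.08, edgeR adjusted p = 0.000693); without Control 1 the adjusted p was 0.0594. Reg3d had a slope of 1.08 (SE 0.06, edgeR adjusted p = 8.88e-07) and was called in all 6 fits with 1 library left out. The other two had high single libraries. Reg2 stood at 16.1, 2.02, 2.65, 14.9, 144.0 and 31.1 CPM and Reg3b at 2.58, 0.69, 1.54, 3.91, 43.6 and 8.09 CPM. Both were highest in Control 1, and Control 3, the library of lowest share, stood above both Jag1 1 and Jag1 2. Their slopes were 0.81 (95% interval -0.08 to 1.70, edgeR adjusted p = 0.695) and 0.94 (95% interval 0.33 to 1.55, edgeR adjusted p = 0.454). Reg3a and Reg3g were too low to be tested but had 106 and 31 counts in Control 1, and Reg4 had at most 3 counts.

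**Figure D5:**
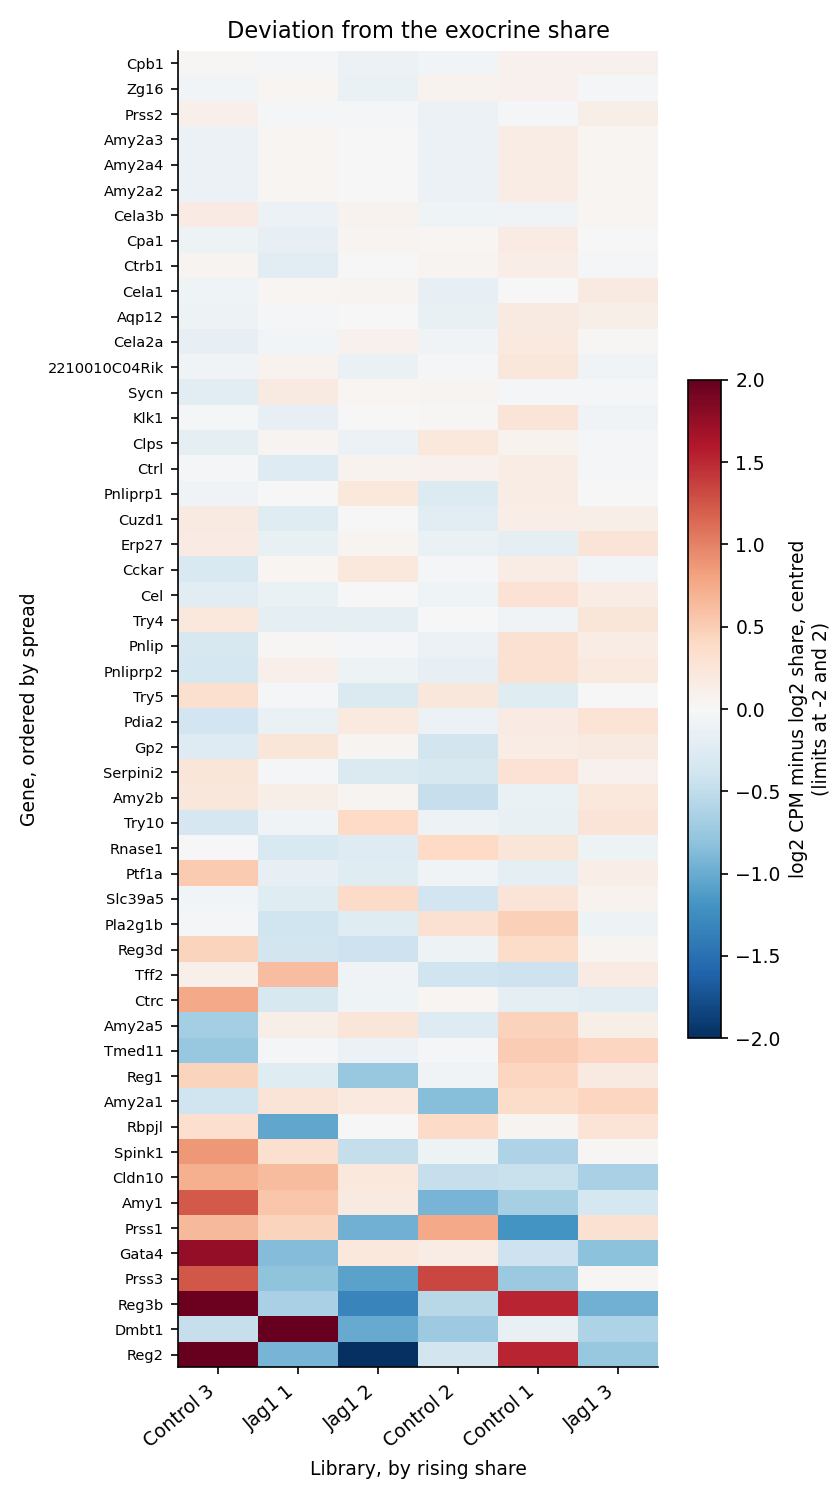
Deviation of acinar genes from proportion, as log2 CPM minus log2 share, centred on the mean over libraries. The 52 genes are the 10 defining genes and the reported list members with slopes above 0.5, ordered by spread. Libraries are in order of rising share, with colours limited at -2 and 2. Most rows are pale, which the choice of genes by slope favours. Xbp1, Bhlha15 and Nr5a2, with slopes below 0.5, are not drawn and have SDs of 1.83, 1.66 and 1.45. Of the genes drawn, 4 have an SD above 1. Reg2 and Reg3b lie high in Control 3 and Control 1 and low in Jag1 2. Dmbt1 lies high in Jag1 1, and Prss3 lies high in Control 3 and Control 2 and low in Jag1 2.

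Of the called genes, 53 of 93 belonged to none of the lists. Among them were the amylase copies Amy2a1 to Amy2a4, the kallikreins Klk1b4, Klk1b5 and Klk1b11, and the pseudogene 1810018F18Rik beside Pnlip. The genes described next were chosen after their values were seen. Ggt1, gamma-glutamyltransferase of glutathione breakdown, stood at 0.68, 1.28, 4.12, 6.66, 17.6 and 17.7 CPM and had a slope of 1.04 (SE 0.06, edgeR adjusted p = 1.03e-06). Gal, which encodes the neuropeptide galanin, stood at 1.43, 2.34, 5.80, 13.9, 22.5 and 35.55 CPM, with a slope of 0.99 (SE 0.08, edgeR adjusted p = 5.12e-05). These rose as steeply as the enzymes. Tead2, a factor of the Hippo pathway, and Gamt, which makes creatine, had slopes of 0.84 each (SE 0.07 and 0.08). Nupr1, a small nuclear protein induced by stress, stood at 43.8, 36.4, 100, 110.8, 298.2 and 187.9 CPM, with a slope of 0.61 (SE 0.05, edgeR adjusted p = 0.000201). Ahcy, S-adenosylhomocysteine hydrolase, had 0.30 (SE 0.04, edgeR adjusted p = 0.00175). Ggt1, Gal, Tead2, Gamt, Nupr1 and Ahcy were all called in each fit with 1 library left out.

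Among the called genes, slopes well above 1 were fitted for Igha, an immunoglobulin gene, and for some genes with few counts. Igha, the constant region of immunoglobulin A heavy chains (chromosome 12, 113254830 to 113260236), had 0, 0, 0, 22, 1383 and 302 counts. Its fitted slope of 4.42 (edgeR adjusted p = 1.62e-08) depends on how zero counts are treated and gives no fold. The gene was highest in Control 1, next in Jag1 3. Zxda, annotated as an unprocessed pseudogene, had 0, 0, 0, 61, 164 and 48 counts. It shares 2622 bp at 99.96% identity with Zxdb, so its reads could come from either. Its call was lost without Control 3 (edgeR adjusted p = 0.32) or Jag1 1 (0.125). Il22ra1, a subunit of the interleukin-22 receptor, had a slope of 1.36 (SE 0.18), and the kallikrein Klk1b11 had 1.33 (SE 0.16), each with 3 counts or fewer in both libraries of lowest share and not called without Jag1 3 (edgeR adjusted p of 0.0583 and 0.0642). Over the 7 tested members of the list of lymph node and B cell genes the median slope was 1.02. The summed level of that list was 3.47, 21.3, 5.18, 16.3, 364.0 and 272.4 CPM. Within it the 2 highest libraries differed: Ms4a1, the B cell gene for CD20, had 579 counts in Control 1 and 9 in Jag1 3, Ighd had 413 and 19, and the immunoglobulin gene Ighm had 103.3 and 175.4 CPM. The part of lymphoid tissue in these slopes was not tested.

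In the immune list, 2 of 15 tested members rose and the median slope was 0.17. These were the class II antigen presentation genes H2-Ab1, with a slope of 0.22 (SE 0.04, edgeR adjusted p = 0.0291), and Cd74, with 0.20 (SE 0.04, edgeR adjusted p = 0.0349). Each was highest in Control 1 and was called in only 2 of the 6 fits with 1 library left out. The call was lost without Control 1, Control 3, Jag1 1 or Jag1 3, with adjusted p from 0.0764 to 0.271 for Cd74 and from 0.110 to 0.274 for H2-Ab1. The leukocyte gene Ptprc had 45.7 CPM in Control 1 and at most 11.1 elsewhere, with a slope of 0.49 (edgeR adjusted p = 0.635). Macrophage genes such as C1qa (87.8 to 136.7 CPM, slope 0.05, edgeR adjusted p = 0.85) had no call.

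The metallothioneins Mt1 and Mt2, zinc-binding proteins of the stress response, were 2 of 6 tested members called in the metallothionein and injury list. Mt1 stood at 138.4, 123.4, 230.8, 240.3, 260.7 and 234.7 CPM (slope 0.23, SE 0.04, edgeR adjusted p = 0.0494) and Mt2 had a slope of 0.18 (SE 0.03, edgeR adjusted p = 0.0309). The 2 libraries of lowest share were the lowest for Mt1, and the other four did not follow the order of the share. Both calls were lost without Control 1, Control 3, Jag1 1 or Jag1 3 (edgeR adjusted p from 0.0921 to 0.616 for Mt1 and from 0.134 to 0.205 for Mt2). Cat, the catalase gene, was 1 of 20 members called in the list of genes normally low in beta cells, with a slope of 0.25 (SE 0.05, edgeR adjusted p = 0.0385) and a list median of 0.20. Cat was not called without Control 1 (edgeR adjusted p = 0.365), Control 3 (0.531) or Jag1 3 (0.153).

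The gene that fell with the share was Gm20594 (chromosome 6, 79817916 to 79818364). It stood at 92.9, 132.1, 94.6, 50.1, 42.9 and 87.6 CPM, with a slope of -0.22 (SE 0.03, edgeR adjusted p = 0.0100). Within each genotype the level fell from library to library as the share rose, although Jag1 3, of the highest share, lay close to Control 3, of the lowest. Gm20594 shares 439 bp at 88.4% identity with the mitochondrial ribosomal RNA mt-Rnr2, so its reads could come from either. The call was lost without Control 1 (edgeR adjusted p = 0.0734) or Control 3 (edgeR adjusted p = 0.506).

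Islet hormone genes and the markers of other pancreatic cells had no calls. In the beta cell list 0 of 19 tested members passed, with slopes from -0.09 to 0.05. Ins2 stood at 110300, 115000, 126800, 91010, 89210 and 86850 CPM, with a slope of -0.09 (95% interval -0.21 to 0.04), and Ins1 had -0.06 (-0.20 to 0.08). The 3 libraries of higher share had the lowest Ins2 levels. The glucagon gene Gcg had a slope of -0.03 (-0.25 to 0.18), the somatostatin gene Sst -0.01 (-0.12 to 0.10) and the pancreatic polypeptide gene Ppy -0.09 (-0.95 to 0.77); each of these 3 changed sign in at least 1 fit with a library left out. None of the 10 tested alpha cell genes, 10 delta and gamma cell genes and 11 endocrine granule genes passed. Jag1 itself had a slope of 0.03 (-0.11 to 0.17), at 4.01 to 4.28 CPM in control and 524.9 to 906.9 CPM in Jag1 libraries; its sign was not stable either. Every library thus matched its label.

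Duct cells border the acini, and 0 of 20 duct genes passed, with a median slope of 0.00. The smallest p in the list was that of Clu, clusterin, at 150.2, 192.3, 196.6, 181.5, 243.0 and 256.8 CPM (slope 0.13, edgeR adjusted p = 0.16). In the stellate, pericyte and fibroblast list 0 of 15 passed, and 12 of 15 slopes were positive with a median of 0.15. Its summed level was 325.5, 356.0, 366.1, 319.7, 262.4 and 559.9 CPM, so Jag1 3 stood above the other five while Control 1, of nearly equal share, was the lowest. In the endothelial list 0 of 12 passed (median slope 0.03). The lists of unfolded protein response (23 genes tested), cell cycle (15), Notch pathway (13), mitochondrially encoded (13), ribosomal protein (20), immediate early and heat shock (15), Schwann and neuron (6), red blood cell (5) and adipocyte genes (2) had 0 calls each. At an adjusted p below 0.05, DESeq2 called 162 genes outside the defining genes, 153 higher (1.09%) and 9 lower (0.064%), and 92 of the 93 edgeR calls were among them.

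The slopes themselves were compared between genotypes with an interaction term. It was called for 3 of 14073 genes (0.0213%), and 710 genes had an unadjusted p below 0.05; DESeq2 called 6 (0.0426%). Of the 93 genes associated with the share, 4 had an unadjusted interaction p below 0.05. These 4 were Amy2a5, with slopes of 1.24 in control and 1.00 in Jag1 libraries, Spink1 with 0.67 and 0.94, the predicted gene Gm10163 with 0.43 and 0.24, and Zxda, which has 0 counts in 3 libraries. None of the 4 passed after adjustment (edgeR adjusted p = 0.966 for each).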

How the data were processed

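RNA was sequenced from islets with a stranded TruSeq mRNA kit, per the labels' protocols. The table the authors deposited gives estimated counts for each gene symbol in the 6 libraries, already as whole numbers and without normalization. Tools named in the submitters' processing notes, with no version, are bcl2fastq, kallisto and limma, and the build is GRCm38 (mm10). The step from transcripts to genes is not described. A comparison table by the authors was not used here. A row naming no gene (0.00896% to 0.0155% of counts) was left out. Library totals were 14283469 to 34348729 counts, so 3 counts, the limit that a count of 0 allows, correspond to 0.0873 to 0.210 CPM before scaling.

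Of 34945 genes, 14073 passed filterByExpr (minimum count 10); libraries were scaled by TMM and genes fitted with edgeR 4.0.16 (R 4.3.3), robust quasi-likelihood, on genotype and centred log2 share, with 3 residual degrees of freedom and Benjamini-Hochberg adjustment over all genes tested. Group means carry the SD over 3 libraries. A second model added the genotype by share interaction. Named genes were the 10 defining genes, Ptf1a, the members of smallest p in each list (up to 4 for acinar, regenerating and duct lists, up to 2 for others), 5 islet hormone genes and Jag1, and the 10 largest slopes in each direction among called genes; some of these are given only as counts, 2 are not reported here, and members beyond the rule were picked after their values were seen. The members and lists were chosen with earlier results of these data known.

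The steps were tested on simulated counts for 13918 genes: slopes of 0.25, 0.5 and 1 were recovered in 66%, 87.8% and 100% of cases, 9 of 185 calls were false, and 0 calls were made with no change. The simulated spread followed the trend with abundance only, without genotype differences or single outlying libraries. These rates therefore need not hold for the real libraries. Alternatives were other scalings, filters and shares, DESeq2 1.42.0, limma-voom 3.58.1, a non-robust fit, a replicate block and left-out libraries. Coordinates are from GENCODE vM21 (GRCm38), promoter sequences from RefSeq (GRCm38.p6; 69 of the 93 called and 8 of the 10 defining genes matched). Shared sequence was searched with BLAST 2.17.0. Figures were drawn with matplotlib 3.10.9.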

Additional observations from a re-analysis of the deposited data

Results flagged for a closer look

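In 3 genes the slope on the exocrine share differed between genotypes by the interaction test (edgeR's quasi-likelihood test, adjusted p = 0.0494 for each). Levels are in the order Control 3, Jag1 1, Jag1 2, Control 2, Control 1, Jag1 3. Eif4a-ps4, a pseudogene, had 0, 1.81, 0, 3.80, 14.98 and 0 CPM, with a Jag1 minus control difference of slopes of -5.93, which rests on zero counts and gives no fold. Rbm3, a cold-induced RNA-binding protein gene, had 51.8, 138.5, 79.99, 69.8, 82.7 and 48.0 CPM, with a difference of -0.56. Cyp26b1, which breaks down retinoic acid, had 9.45, 0.85, 3.19, 2.97, 2.58 and 9.45 CPM, with a difference of 1.36. Each genotype's slope rests on 3 libraries, and on fewer in a genotype with a library left out. Without Control 3 the difference was not called for Cyp26b1 (1.07, edgeR adjusted p = 1) or Rbm3 (-0.59, edgeR adjusted p = 0.74), and without Jag1 1 it was not called for Eif4a-ps4 (-1.75, edgeR adjusted p = 1).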

How the results depend on the processing

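The fit rests on 6 libraries with 3 residual degrees of freedom. Fits with libraries left out, with a replicate block or with the interaction leave fewer, so their counts are less certain. The 93 calls outside the defining genes (92 higher, 1 lower) became 162 with DESeq2 (153 higher, 9 lower), 263 with no filter on low counts (240 higher, 23 lower) and 152 without the 2 libraries of highest share (75 lower). Of the 93 genes, 85 were still tested in that last fit, all 85 kept their sign and 46 were called. The number lower was 9 with library totals in place of TMM, 0 with share alone, and 6 without the 2 libraries of lowest share. Leaving out 1 library gave 70 to 162 calls, 63 to 158 higher and 1 to 14 lower. The cause of these shifts was not tested. The other scalings, limma-voom, the non-robust fit, a minimum count of 50, share in percent and a share from the other acinar secreted proteins kept the total within 1.5 times; with share in percent, 43 of the 93 genes were called.

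With the replicate number as a block there were 130 calls, 121 higher and 9 lower, and 81 of the 93 genes were among them. Log2 levels, taken as deviations from the genotype mean, correlated at -0.19, 0.11 and -0.29 between same-numbered control and Jag1 libraries. These deviations still held the share, which differs between same-numbered libraries, so they cannot tell whether the numbers pair the libraries.

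The 3 interaction calls became 6 with DESeq2, 22 with no filter, 0 with the non-robust fit, 0 with share in percent, and 11 to 378 with 1 library left out. The difference in share between genotypes was -0.059 percentage points (exact permutation p = 1) when taken in percent, and ranged from -1.13 to 1.10 on the log2 scale with 1 library left out.

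Of the genes named, signs turned only where the slope was near 0. With library totals, Xbp1 had -0.018 and Jag1 -0.00645. Without the 2 libraries of highest share, Ins1 had 0.051, Sst 0.091, Ppy 0.28 (edgeR adjusted p = 0.0245) and Jag1 -0.15, and without the 2 of lowest share Gcg had 0.24. With 1 library left out, slopes ranged from -0.16 to 0.036 for Gcg, -0.10 to 0.024 for Sst, -0.0044 to 0.038 for Xbp1, -0.49 to 0.15 for Ppy and -0.075 to 0.12 for Jag1.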
